A study of Rattus norvegicus with 8 samples.

Results

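Slc2a1, Hk2, Gapdh, Ldha and Vegfa are 5 genes that stand downstream of the kinase complex mTORC1, and their RNA levels are described here in 8 rat leiomyoma tumours grown in mice. They were chosen by gene identifier for their place in the pathway, with earlier results of these data known. They are 5 of 23918 genes listed, and all 5 passed the filter on low values that left 13686 genes for testing. The identifiers are ENSRNOG00000007284 for Slc2a1, ENSRNOG00000006116 for Hk2, ENSRNOG00000018630 for Gapdh, ENSRNOG00000013009 for Ldha and ENSRNOG00000019598 for Vegfa. The symbols come from the selection rule, because the deposited table holds identifiers alone.

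ELT3-V3 cells were injected subcutaneously into female NOD-scid mice 6 weeks of age. ELT3 is a rat uterine leiomyoma line without the tumour suppressor tuberin (Tsc2), and it serves as a model of lymphangioleiomyomatosis (LAM). All groups therefore share the Tsc2 defect, and all share a host without mature T and B cells that still supplies mouse vessels, fibroblasts and myeloid cells. Treatment began at a tumour volume of 150 to 200 mm3 in 4 groups with 2 tumours each. Controls received the vehicle of carboxymethylcellulose and Tween-80. The second group received rapamycin, which inhibits mTORC1, at 0.25 mg/kg per day. The remaining groups received rapamycin, at a dose the labels do not repeat, together with a second drug, either clorgyline (10 mg/kg daily) or rasagiline (1 mg/kg daily). Clorgyline and rasagiline are irreversible inhibitors of the A and B forms of monoamine oxidase.

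In cells without tuberin, mTORC1 is free of the restraint that tuberin exerts and raises translation of the transcription factor HIF-1α. HIF-1α, together with Myc, drives genes for glucose uptake and glycolysis and the angiogenic growth factor Vegfa. Slc2a1 encodes the glucose transporter GLUT1, Hk2 encodes hexokinase 2, which phosphorylates glucose and so traps it in the cell, and Gapdh encodes the enzyme of the middle of glycolysis that makes NADH. Ldha encodes the lactate dehydrogenase subunit that turns pyruvate into lactate and restores NAD+. Vegfa is a secreted ligand that acts on receptors of endothelial cells and was measured here as RNA in the whole tumour.

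The promoters of these genes show which of them carry the letters ACGTG close to the annotated start. ACGTG is a form of the core that HIF-1 recognises, and the other form, GCGTG, was neither counted nor marked. The 250 bases before the start come from RefSeq (build GRCr8, not the build of the expression table), were matched by symbol for all 5 genes, and are printed 5′ to 3′ on the gene's strand with ACGTG, or its reverse complement CACGT, in capitals. Ldha and Gapdh are shown as the genes that passed the test described below, Slc2a1 as the transporter, and Hk2 as the gene with the largest difference.
Ldha, chr1:106507842-106508091, + strand: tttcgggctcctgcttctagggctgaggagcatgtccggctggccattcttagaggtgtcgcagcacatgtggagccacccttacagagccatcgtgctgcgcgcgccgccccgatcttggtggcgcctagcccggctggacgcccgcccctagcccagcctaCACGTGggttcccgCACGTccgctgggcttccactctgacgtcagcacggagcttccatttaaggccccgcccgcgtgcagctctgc
Gapdh, chr4:159652468-159652717, - strand: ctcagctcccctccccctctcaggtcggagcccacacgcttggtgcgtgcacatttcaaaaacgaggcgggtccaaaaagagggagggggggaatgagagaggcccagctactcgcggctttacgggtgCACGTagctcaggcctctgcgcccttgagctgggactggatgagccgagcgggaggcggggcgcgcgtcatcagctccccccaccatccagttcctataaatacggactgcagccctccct
Slc2a1, chr5:138002272-138002521, + strand: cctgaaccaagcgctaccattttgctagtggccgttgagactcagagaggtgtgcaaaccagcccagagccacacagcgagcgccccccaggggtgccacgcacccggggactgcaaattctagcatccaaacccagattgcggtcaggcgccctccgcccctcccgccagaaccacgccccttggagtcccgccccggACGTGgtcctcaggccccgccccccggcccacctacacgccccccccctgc
Hk2, chr4:116841276-116841525, - strand: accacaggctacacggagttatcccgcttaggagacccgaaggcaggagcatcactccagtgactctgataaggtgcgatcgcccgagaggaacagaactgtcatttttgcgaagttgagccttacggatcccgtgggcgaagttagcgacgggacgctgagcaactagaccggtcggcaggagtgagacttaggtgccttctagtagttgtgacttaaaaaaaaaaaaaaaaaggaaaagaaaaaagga
Ldha held 3 matches counted over both strands, of which 2 share the palindrome CACGTG that begins 87 bases before the start. Gapdh held 1 match, beginning 121 bases before the start, and Slc2a1 held 1, beginning 51 bases before it. Hk2 held 0, and so did the window of Vegfa at its first annotated start, which is not printed. Of 33465 windows of this length in the table, 16.6% held ACGTG on either strand and 5.59% held CACGTG. A match describes letters in the window, and a lack of one says only that these letters are not in these 250 bases.

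Values are TPM, which counts transcripts in a library of fixed sum after division by gene length, so that levels can be compared between genes. Sequencing depth was unknown, and every library has the same TPM sum. The tumours of a group correlated across the genes tested at r = 0.947 to 0.982. The second rapamycin tumour stood apart from the rest, with a mean log2 distance of 0.783 (root mean square) from the other libraries against 0.586 to 0.663 for the other 7. Reads of mouse host cells that align to rat genes would count in these values, and their part in any result was not tested. In whole tumours, fewer cells of a type and less RNA per cell cannot be told apart. Genes were tested with limma on log2(TPM + 1), with adjustment over all genes tested, and "fell" is written only where the adjusted p was below 0.05.

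Across all 3 rapamycin-containing groups, the glycolytic genes Ldha and Gapdh fell by 46.9% and 45.7% of their control mean, Hk2 had the largest difference but missed the threshold, Slc2a1 was lower with overlapping values, and Vegfa showed no detectable difference. In the comparison of the mean of the 3 groups with control, 2 of the 5 genes passed the limma test, both downward, against 1.19% of all genes tested. Lower values without overlap between the 6 treated tumours and the 2 controls were found in 3 of the 5 genes (Hk2, Gapdh and Ldha), against 8.91% of all genes. The median log2 difference was -0.90 over the 5 genes and 0.10 over all genes tested. All 5 differences were below 0, as were 39.0% of those of all genes. Because the 5 genes were chosen with earlier results of these data known, these shares are descriptions.

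**Figure D1:**
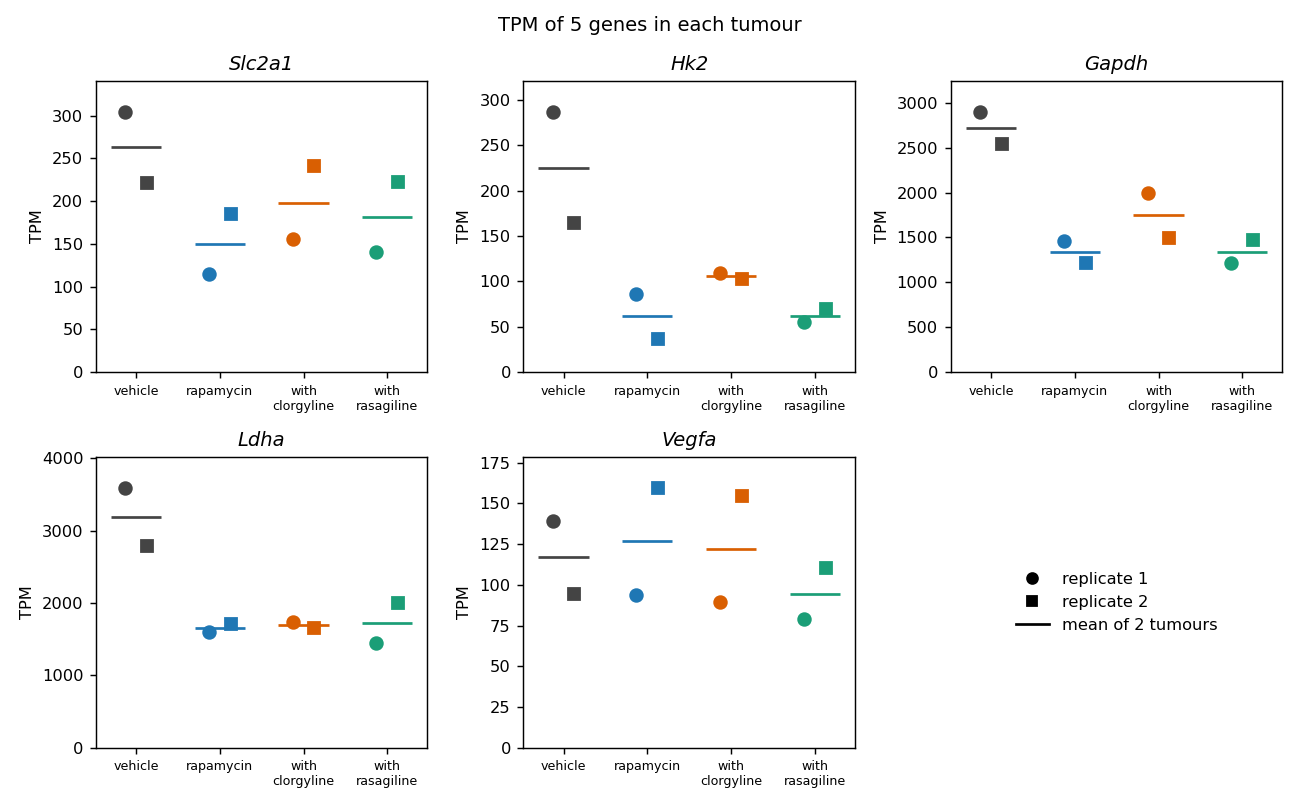
TPM of each gene (y axis, from 0) in each tumour by group (x axis), with circles for replicate 1, squares for replicate 2 and a line at the mean of the 2 tumours. For Hk2, Gapdh and Ldha every treated tumour lies below both controls, whereas Slc2a1 and Vegfa overlap.

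Slc2a1, at the entry of glucose into the cell, stood at 304 and 222 TPM in the controls. It stood at 115 and 185 TPM with rapamycin, at 155 and 241 TPM with clorgyline added, and at 140 and 223 TPM with rasagiline added. Both rapamycin tumours were below both controls, while 1 tumour of each combination lay between the controls. The group means were 263 ± 58.2 TPM in controls, 150 ± 49.6 with rapamycin, 198 ± 60.5 with clorgyline and 181 ± 58.4 with rasagiline (SD, n = 2 each). The SD within groups exceeded the distances between the means of the treated groups. For the mean of the treated groups the log2 difference from control was -0.60 (SE 0.281, 95% interval -1.26 to 0.056), with a limma adjusted p of 0.262 that misses the threshold. Rapamycin alone gave -0.83 (95% interval -1.63 to -0.024; limma adjusted p = 0.255).

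Hk2, which commits glucose to metabolism within the cell, stood at 286 and 164 TPM in the controls. Its values were 85.7 and 36.9 TPM with rapamycin, 109 and 102 TPM with clorgyline added, and 54.6 and 70.0 TPM with rasagiline added. All 6 treated tumours were below the lower control, and the second rapamycin tumour was the lowest of all. The mean of the 6 treated tumours was 76.5 ± 28.0 TPM (SD, n = 6), against 225 ± 86.7 TPM in controls (SD, n = 2). This was a 2.94-fold lower mean and a log2 difference of -1.58 (SE 0.333, 95% interval -2.36 to -0.80), with a limma adjusted p of 0.0555. Of all genes tested, 0.709% had a more negative difference. Hk2 did pass without the first or second rapamycin tumour (limma adjusted p = 0.0105 and 0.0205) and also after median rescaling (0.0431), with a filter of 5 TPM (0.0472) and with array weights (0.0216), while without the first or second control the adjusted p was 0.361 and 0.229.

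Gapdh, which is often used as a reference gene for RNA levels, stood at 2896 and 2537 TPM in the controls. It stood at 1461 and 1213 TPM with rapamycin, at 1998 and 1495 TPM with clorgyline added, and at 1214 and 1471 TPM with rasagiline added. The highest treated tumour was the first of the clorgyline combination, and it was still below both controls. For the mean of the 3 groups Gapdh fell by 0.90 on the log2 scale (SE 0.169, 95% interval -1.29 to -0.50; limma adjusted p = 0.0457), from 2716 ± 254 TPM (SD, n = 2) to 1475 ± 287 TPM (SD, n = 6). Its rank by TPM moved from 36 and 43 in the controls to between 72 and 142 in the treated tumours. Gapdh has many near-identical processed pseudogenes, and how reads shared with them were counted is not given in the sources used here, so its level is uncertain.

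Ldha, the last step of fermentative glycolysis, was the most abundant of the 5 genes in the controls, at 3591 and 2787 TPM. It stood at 1598 and 1713 TPM with rapamycin, at 1739 and 1655 TPM with clorgyline added, and at 1447 and 2007 TPM with rasagiline added. The treated tumours lay close together, and all were below both controls. For the mean of the 3 groups Ldha fell by 0.91 on the log2 scale (SE 0.171, 95% interval -1.31 to -0.51; limma adjusted p = 0.0457), from 3189 ± 569 TPM (SD, n = 2) to 1693 ± 186 TPM (SD, n = 6). Against control the 3 groups had log2 differences of -0.93, -0.90 and -0.89 with rapamycin, the clorgyline combination and the rasagiline combination. These 3 values share their controls.

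The calls for Gapdh and Ldha in this comparison stood near the threshold and depended on single tumours. The limma adjusted p was 0.314 for Gapdh and 0.321 for Ldha without the first control, and 0.270 and 0.229 without the second. Without either tumour of a combination both also lost the call, at 0.0649 to 0.111, while without the first or second rapamycin tumour both kept it (0.0202 to 0.0293). Both also lost it with no filter on low values (0.112 and 0.116) and without a variance trend (0.0684 each), and Gapdh alone lost it after median rescaling (0.0559). The direction was the same in all of these fits, and leaving out single tumours gave log2 differences between -0.99 and -0.80 for Gapdh and between -1.09 and -0.73 for Ldha.

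**Figure D2:**
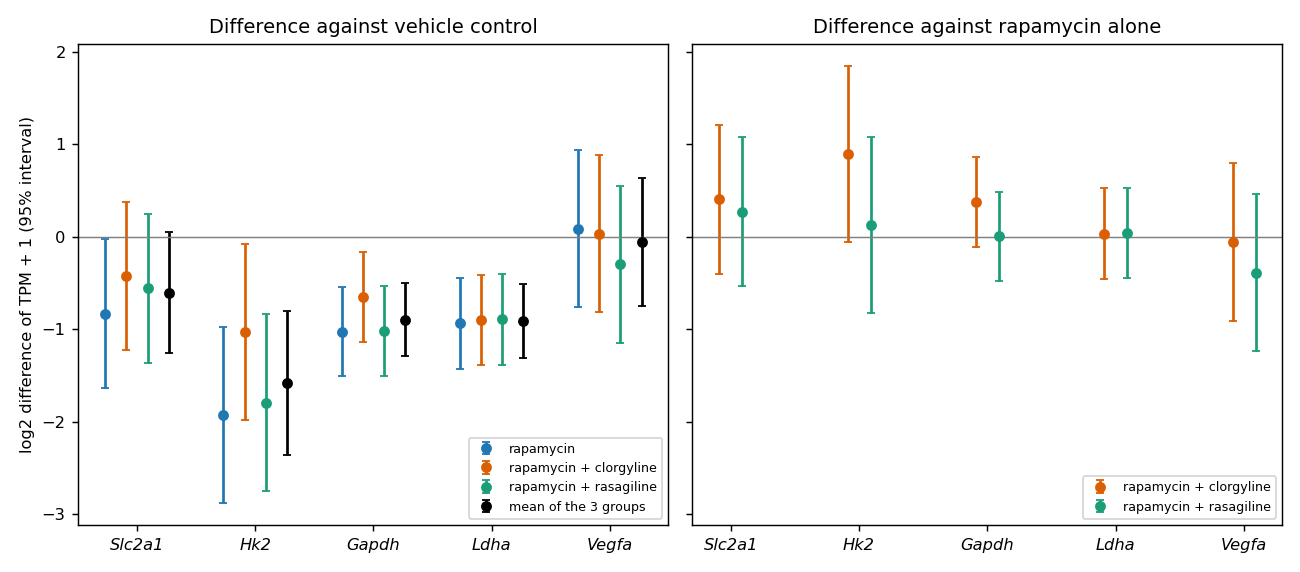
Log2 difference of TPM + 1 (y axis) for each gene (x axis) with its 95% interval from limma, against vehicle control (left) and against rapamycin alone (right), coloured by group. Intervals for Hk2, Gapdh and Ldha lie below 0 against control in every group, and all intervals against rapamycin alone include 0.

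Vegfa, the secreted angiogenic ligand, stood at 139 and 94.6 TPM in the controls. It stood at 93.7 and 159 TPM with rapamycin, at 89.7 and 155 TPM with clorgyline added, and at 79.3 and 110 TPM with rasagiline added. The highest and the lowest of the 8 values both came from treated tumours, and every treated group overlapped the controls. The log2 difference of the mean of the 3 groups from control was -0.057 (SE 0.297, 95% interval -0.75 to 0.64; limma adjusted p = 0.930). An interval of this width does not show that Vegfa was unaffected. For the separate groups the log2 differences were 0.089 with rapamycin, 0.036 with clorgyline added and -0.30 with rasagiline added (limma adjusted p = 0.919, 0.979 and 0.689).

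**Figure D3:**
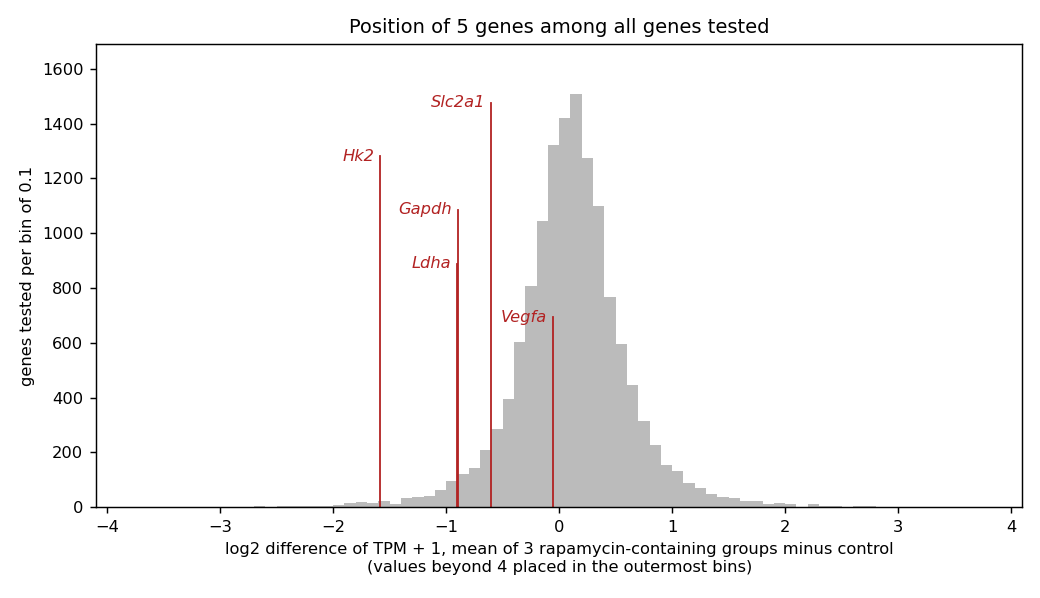
Number of genes tested (y axis) by log2 difference of the mean of the 3 rapamycin-containing groups from control (x axis, bins of 0.1), with red lines at the 5 genes. Hk2 lies far in the lower tail at -1.58, Ldha and Gapdh lie together at -0.91 and -0.90, Slc2a1 lies at -0.60 and Vegfa near the centre at -0.057.

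Each treated group was also set against control by itself, which asks whether the lower glycolytic levels appeared with rapamycin alone. With rapamycin alone, 0 of the 5 genes passed the limma test, against 0.643% of all genes, and 4 (all but Vegfa) had an unadjusted p below 0.05 with a lower value, against 6.99%. The same 4 genes had no overlap with the controls and lower values, against 17.6%. Hk2 had a log2 difference of -1.92 (95% interval -2.88 to -0.97; limma adjusted p = 0.0825), Gapdh of -1.03 (0.0778) and Ldha of -0.93 (0.0919). The adjusted p of Hk2 was 0.0110 and that of Gapdh 0.0301 without the first rapamycin tumour, where both passed. The log2 difference of Hk2 was -2.52 in that fit, and -1.33 (limma adjusted p = 0.135) without the second rapamycin tumour, which stands apart from the other libraries.

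With clorgyline added, 0 of the 5 genes passed the limma test, against 0.0146% of all genes. Hk2, Gapdh and Ldha had an unadjusted p below 0.05 with a lower value, against 5.65% of all genes, and the same 3 had lower values without overlap, against 19.8%. Their log2 differences were -1.03 (95% interval -1.98 to -0.074; limma adjusted p = 0.339), -0.65 (-1.13 to -0.16; 0.258) and -0.90 (-1.39 to -0.41; 0.177). With rasagiline added, 0 of the 5 passed, against 1.57% of all genes. Hk2, Gapdh and Ldha again had an unadjusted p below 0.05 with a lower value, against 5.69%, and lower values without overlap, against 18.3%. Their log2 differences were -1.79 (95% interval -2.75 to -0.84; limma adjusted p = 0.0760), -1.02 (-1.50 to -0.54; 0.0617) and -0.89 (-1.38 to -0.40; 0.0832). When only the controls and the rasagiline combination were fitted, Hk2 (adjusted p = 0.0477) and Gapdh (0.0455) passed, and without either rapamycin tumour Hk2, Gapdh and Ldha passed. All of these comparisons use the same 2 controls.

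Each combination was also set against rapamycin alone, where the groups differ by the second drug and an equal rapamycin dose is not stated. With clorgyline, 0 of the 5 genes passed the limma test in either direction (0% of all genes, and 0 of the 5 against 7.61% at an unadjusted p below 0.05). Both clorgyline tumours had more Hk2 than either rapamycin tumour, by a log2 difference of 0.90 (95% interval -0.057 to 1.85; limma adjusted p = 0.639). Gapdh was likewise higher without overlap, by 0.38 (95% interval -0.11 to 0.86; limma adjusted p = 0.645), and a lack of overlap in either direction was found in 34.3% of all genes. Without the second rapamycin tumour the Hk2 difference was 0.30, and without the first it was 1.49. Ldha differed by 0.036 (95% interval -0.45 to 0.53) and Vegfa by -0.054 (-0.91 to 0.80).

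With rasagiline, 0 of the 5 genes passed against rapamycin alone (0.0146% of all genes, and 0 of the 5 against 5.81% at an unadjusted p below 0.05). The log2 difference was 0.0056 for Gapdh (95% interval -0.48 to 0.49), 0.043 for Ldha (-0.45 to 0.53), 0.13 for Hk2 (-0.82 to 1.09), 0.27 for Slc2a1 (-0.53 to 1.08) and -0.38 for Vegfa (-1.24 to 0.47). The intervals of Gapdh and Ldha were the narrowest of the 5, and for Hk2, Slc2a1 and Vegfa a change of about 1 log2 unit lay within the interval. Clorgyline and rasagiline were given at different doses, so their values stand side by side. Hk2 stood at 109 and 102 TPM with clorgyline and at 54.6 and 70.0 TPM with rasagiline, and Gapdh at 1998 and 1495 TPM against 1214 and 1471 TPM. Neither gene overlapped between the combinations, as was the case for 36.7% of all genes in either direction. The log2 differences of 0.76 for Hk2 (95% interval -0.19 to 1.72) and 0.37 for Gapdh (-0.11 to 0.85) had a limma adjusted p of 0.997 each. In this comparison 0 of the 5 genes passed, against 0.0219% of all genes, and 0 had an unadjusted p below 0.05, against 4.6%.

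Ldha and Gapdh were the abundant genes in every tumour, where the lower of them stood between 6.2 and 12.7 times the TPM of the highest of the other 3 genes. Their own ranges overlapped in the controls and in the treated tumours. Among the less abundant genes, Slc2a1 and Hk2 overlapped in the controls, and both lay above Vegfa. In the 6 treated tumours the medians were 170 TPM for Slc2a1, 102 for Vegfa and 77.8 for Hk2. Vegfa overlapped both of the other genes there, while every treated Slc2a1 value was above every treated Hk2 value. The 5 genes together held 0.580% and 0.722% of all TPM in the controls and between 0.293% and 0.409% in the treated tumours. Ldha and Gapdh make up most of this share, so it says little about the other 3 genes.

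A ratio of 2 genes within a tumour does not depend on how that library was scaled, so each gene was also set against Gapdh. The ratio of Ldha to Gapdh was 1.24 and 1.10 in the controls and ranged from 0.870 to 1.41 in the treated tumours, with means that differed by -0.011 on the log2 scale. This difference changed sign when single tumours were left out. The ratio of Hk2 to Gapdh was 0.0989 and 0.0646 in the controls and ranged from 0.0304 to 0.0684 in the treated tumours, a log2 difference of -0.70 with overlap. The ratio of Slc2a1 to Gapdh was 0.105 and 0.0874 in the controls against 0.0778 to 0.161, a log2 difference of 0.29. That of Vegfa to Gapdh was 0.0481 and 0.0373 against 0.0449 to 0.131, a log2 difference of 0.84. For Vegfa over Gapdh, 5 of the 6 treated tumours exceeded both controls, the exception being the first clorgyline tumour. For the mean of the 3 groups the log2 differences from control were -0.90 for Gapdh itself, -0.60 for Slc2a1 and -0.057 for Vegfa. A higher ratio to Gapdh is therefore not a higher level of the other gene. These ratios are given as descriptions, with no test.

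**Figure D4:**
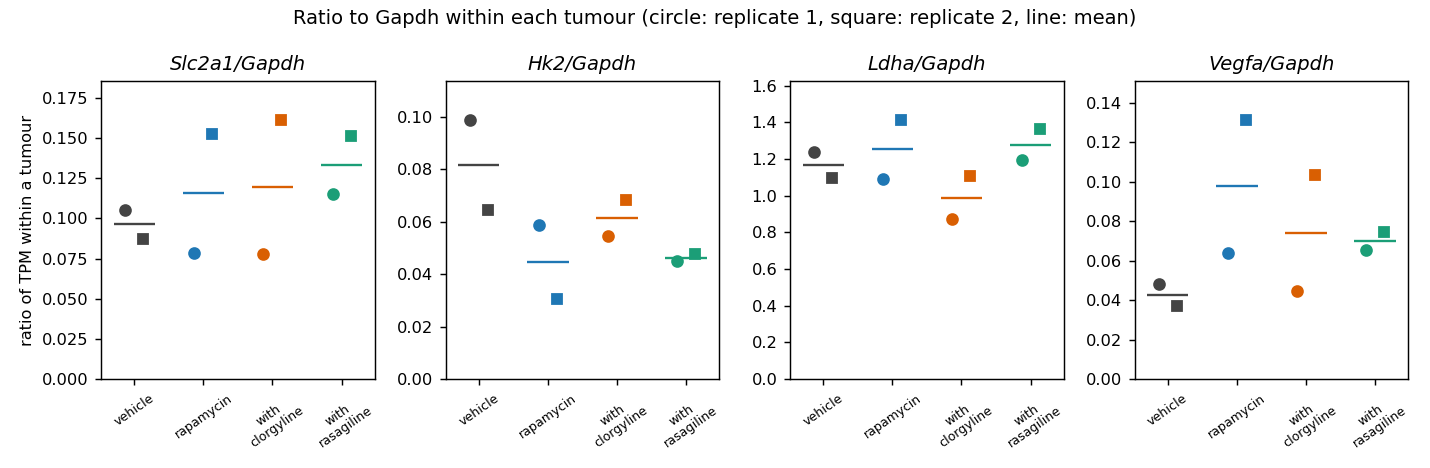
TPM of Slc2a1, Hk2, Ldha and Vegfa divided by that of Gapdh in the same tumour (y axis, from 0) by group (x axis), with circles for replicate 1, squares for replicate 2 and a line at the mean. For Ldha over Gapdh every treated group overlaps the controls, but the clorgyline tumours (0.870 and 1.11) lie below the rasagiline tumours (1.19 and 1.36). Hk2 over Gapdh is mostly lower and Vegfa over Gapdh mostly higher in treated tumours. Gapdh itself is lower in every treated tumour than in both controls.

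Pairs of genes were followed across tumours on the log2(TPM + 1) scale. In each of the 4 groups the tumour with more Slc2a1 also had more Vegfa, and the tumour with more Gapdh also had more Hk2. These were 2 of the 10 pairs, and the other 8 moved together in 3 of 4 groups (4 pairs) or in 2 of 4 (4 pairs). Over the 8 tumours Slc2a1 and Vegfa correlated at Pearson r = 0.634 (exact permutation p = 0.0954, adjusted over 10 pairs 0.191) and Spearman rho = 0.667 (exact permutation p = 0.0831, adjusted 0.166). Without the 2 tumours farthest from the median of Slc2a1, r was 0.590. Within the 6 treated tumours Pearson r was 0.711 for this pair (exact permutation p = 0.122, adjusted over 10 pairs 0.611). The relation of Slc2a1 with Vegfa thus did not pass the test in either set of tumours. Hk2 and Gapdh separate controls from treated tumours, so their relation was taken within the 6 treated tumours, where Pearson r was 0.833 (exact permutation p = 0.0319, adjusted over 10 pairs 0.319) and Spearman rho 0.943 (exact permutation p = 0.0167, adjusted 0.167). Without the 2 tumours farthest from the median of Hk2, r was 0.662. The permutations shuffled tumours across groups, and both genes were higher without overlap in the clorgyline combination than in either other treated group. The p-values therefore do not separate differences between treated groups from a relation between tumours. In the same 6 tumours Gapdh and Ldha correlated at r = 0.362 (exact permutation p = 0.485, adjusted 0.962), and Hk2 and Ldha at r = 0.107 (exact permutation p = 0.844, adjusted 0.983).

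**Figure D5:**
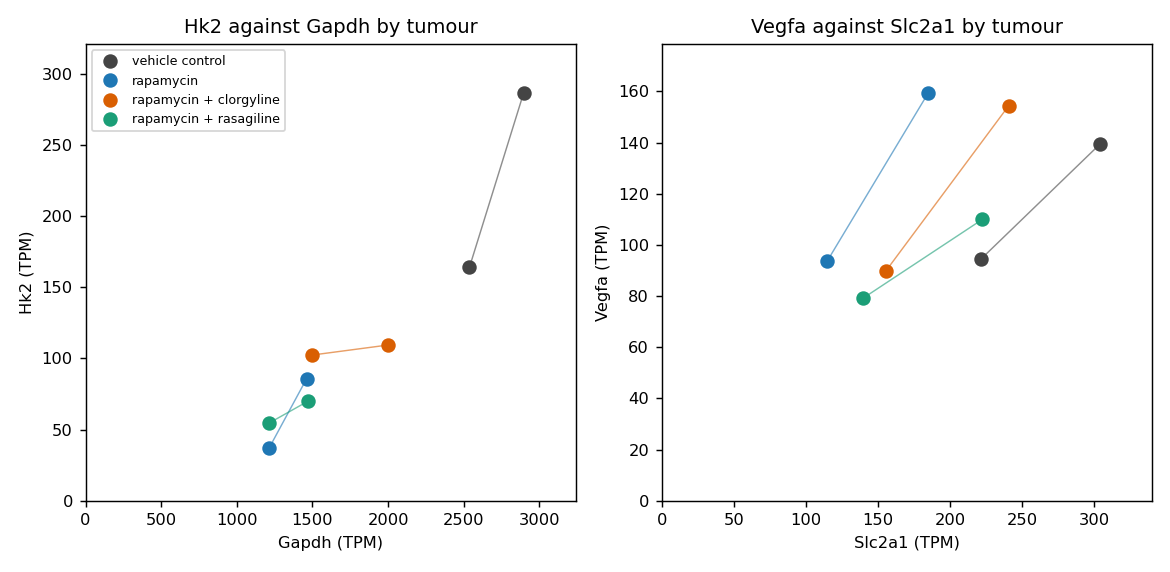
Hk2 against Gapdh (left) and Vegfa against Slc2a1 (right) in TPM, with each point a tumour, coloured by group, and a line joining the 2 tumours of a group. Every line slopes upward in both panels, and the controls stand apart from the treated tumours on the left. On the right the first control has the highest Slc2a1, and both controls have less Vegfa for their Slc2a1 than the treated tumours.

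Likeness to other genes was counted over the 8 tumours among 10223 other genes with a mean of at least 5 TPM. A Pearson r of at least 0.9 was found with 121 of them for Hk2 (1.18%), 83 for Gapdh (0.812%) and 77 for Ldha (0.753%). It was found with 19 genes for Slc2a1 (0.186%) and 8 for Vegfa (0.0783%). Those genes share the libraries, and the ones like Hk2, Gapdh and Ldha follow genes that separate controls from treated tumours. None is named because the reference used here paired no symbol with their identifiers. Such counts were not computed for any other gene, so whether these are high or low is not known.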

How the data were processed

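RNA extracted with TRIzol from 8 tumours was sequenced from TruSeq libraries, per the labels' protocols. The authors deposited 1 table of TPM for 23918 Ensembl rat genes. Build rn6, STAR 2.4.0f1, SAMtools 0.1.18, DESeq2 and bedtools appear without roles in the submitters' processing notes. How TPM was computed, the annotation and any removal of mouse reads are not given there. TPM keeps no depth, so no counting interval was computed.

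Groups came from tumour titles, and replicate numbers only name tumours. Nothing says that each tumour had its own mouse, so p-values measure only the spread between samples, and 0 pairs of libraries held identical values.

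Genes with at least 1 TPM in at least 2 libraries (13686) were tested with limma 3.58.1 in R 4.3.3 on log2(TPM + 1), with a variance trend and all 8 libraries in 1 fit (4 residual degrees of freedom). The 7 two-sided comparisons were each adjusted by Benjamini-Hochberg. The fit was also run on simulated data with genes drawn independently, which is no support for the calls above. Plots used matplotlib 3.10.9.

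The members and lists were chosen with earlier results of these data known. The rule for named genes covered the 5 members and 13 lists of pathway genes and cell markers. None of the 23918 identifiers matched the RefSeq gene table (GRCr8), so these lists, markers of tumour and host cells included, were not tested. Alternatives were other pseudocounts, filters, scalings, variance models and subsets of groups or libraries.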

Additional observations from a re-analysis of the deposited data

How the results depend on the processing

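No paired analysis was possible because the replicate numbers only name tumours. In the comparison of the 3 treated groups with control, the number of the 5 genes called was 0 with no filter on low values, 0 without a variance trend, 3 with a filter of 5 TPM, 3 with array weights, and 0 to 3 when single libraries were left out. In the rasagiline combination against control it was 1 with a filter of 5 TPM, 2 after quantile normalization, 2 when only these groups were fitted, 3 with array weights and 0 to 3 when libraries were left out, and in rapamycin against control it was 0 to 2 when libraries were left out. Over 16 alternatives of the first comparison, Slc2a1, Hk2, Gapdh and Ldha were lower than control in all 16, with 0, 5, 7 and 8 calls. With median rescaling the log2 differences were -1.69 for Hk2, -1.01 for Gapdh (adjusted p = 0.0559) and -1.02 for Ldha. The median of all genes, 0.10 as deposited, is removed by that scaling.

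Signs changed only in differences that no fit called. Vegfa against control was -0.0064 with rapamycin and -0.030 with clorgyline after median rescaling, and ranged from -0.29 to 0.47, -0.35 to 0.42 and, for the mean of 3 groups, -0.33 to 0.22 when libraries were left out. For the rasagiline combination against rapamycin, Gapdh was -0.0055 and Ldha -0.043 after quantile normalization and -0.063 and -0.026 after median rescaling. Leaving out libraries gave -0.067 to 0.62 for Slc2a1, -0.46 to 0.73 for Hk2, -0.13 to 0.14 for Gapdh and -0.19 to 0.28 for Ldha there. For clorgyline against rapamycin the ranges were -0.014 to 0.087 for Ldha and -0.44 to 0.34 for Vegfa. Between the combinations, Ldha was 0.077 and 0.092 after quantile and median scaling, and the ranges were -0.20 to 0.46 for Slc2a1, -0.24 to 0.23 for Ldha and -0.058 to 0.72 for Vegfa. The log2 ratio of Ldha to Gapdh ranged from -0.098 to 0.077 when libraries were left out. The cause of these changes was not tested.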

Other observations

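Ratios of 2 genes within a tumour were also taken for the other pairs, after the values were seen, and are given with no test. Of the 10 ratios among the 5 genes, 3 did not overlap between controls and treated tumours, and all 3 involve Vegfa. Of the genes in these 3 ratios, Hk2 and Ldha were themselves lower without overlap in the treated tumours, while Slc2a1 and Vegfa overlapped. The ratio of Vegfa to Slc2a1 was 0.458 and 0.427 in the controls and ranged from 0.494 to 0.862 in the 6 treated tumours. That of Vegfa to Ldha was 0.0388 and 0.0339 in the controls and ranged from 0.0516 to 0.0933 in the treated tumours. The ratio of Hk2 to Vegfa was 2.05 and 1.73 in the controls and ranged from 0.232 to 1.22 in the treated tumours. The fourth ratio with Vegfa, that to Gapdh, overlapped (0.0481 and 0.0373 against 0.0449 to 0.131), as did the other 6. The lowest Hk2 to Vegfa ratio belonged to the second rapamycin tumour, which had both the lowest Hk2 (36.9 TPM) and the highest Vegfa (159 TPM) of the 8. The share of such separations among ratios of other genes was not computed.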
